A study of Mus musculus with 9 samples.

Results

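The cell cycle genes described here are 48 genes named by symbol: 25 of mitosis, taken with Foxm1, and 23 of DNA replication, taken with E2f1 and E2f8. Each was read from the brightest probe set, by mean over 9 arrays, that carries its symbol alone. Of the 48, 47 were measured among 19937 genes in all, 24 of mitosis and 23 of replication. No probe set was named for Ccnb1, which has no intensity values here and enters only the promoter counts. The members were chosen as known cell cycle genes, not by their values, but with earlier results of these arrays in view. The array that stands out below, Ly6C-high replicate 2, was picked out in the same way.

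The arrays hold RNA of cells sorted from wild type C57BL/6 mice kept free of specified pathogens. There were 3 arrays of Ly6C-high brain microglia, whose labels give the cell type as MgSCs, 3 of Ly6C-low microglia, labelled as bulk microglia cells, and 3 of spleen monocytes. All microglia came from perfused, enzyme-digested and Percoll-enriched brain, sorted on CD11b, CD45, Ly6C, F4/80 and MHC class II staining, with no transgene, deletion or treatment named. The sources used here give no ages. They also do not say that the replicates are separate animals, so each p-value reflects the scatter among these arrays, part of which may be technical.

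Values are log2 intensities. The array median was between 5.83 and 5.96, and the median of all gene means was 6.13. The interquartile range was narrower in Ly6C-high replicate 1, at 2.24, than in the other arrays, at 2.62 to 2.91. Before the cell cycle is considered, the labels were set against marker genes. The 14 homeostatic microglia markers averaged 10.9 to 11.3 in Ly6C-low arrays, 8.34 to 9.01 in Ly6C-high arrays and 7.37 to 7.41 in monocytes. Tmem119, a defining microglial gene, stood at 8.23, 8.47 and 9.32 in Ly6C-high replicates 1, 2 and 3 against 11.58 to 12.18 in Ly6C-low arrays. The 17 brain endothelium markers averaged 10.4 to 10.8 in the Ly6C-high arrays against 6.22 to 7.49 in the Ly6C-low arrays and 6.19 to 6.27 in monocytes. The 15 classical monocyte markers averaged 10.1 to 10.4 in monocytes, and among microglia Ly6C-high replicate 2 stood apart at 9.61, with the other 5 between 6.28 and 7.31. Among Ly6C-low arrays, replicate 3 stood apart for the 12 neutrophil markers, at 9.30 against 6.58 and 6.90. The spleen monocyte arrays averaged 10.0 to 10.6 for these neutrophil markers, close to their classical monocyte level. The 14 T and NK cell markers averaged 7.44 to 8.19 in monocyte arrays, 5.39 to 5.67 in Ly6C-high arrays and 5.40 to 5.59 in Ly6C-low arrays.

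A dividing cell copies its DNA in S phase and separates the copies in mitosis, and each step has its own set of genes. Replication genes such as the Mcm helicase subunits and the ribonucleotide reductase genes are switched on by E2F factors near the start of S phase. Mitotic genes such as cyclins, spindle motors and kinetochore proteins follow later under the DREAM and MuvB complexes with B-Myb and FOXM1, which act at CHR elements and CCAAT boxes. Adult microglia renew slowly from within the brain, while monocytes descend from bone marrow precursors that divide rapidly before they leave.

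Promoter sequence was read for the members from RefSeq windows of GRCm38.p6 that run from 250 bases before a gene's start to 50 after it. Windows were found for 20 of the 25 mitosis genes (21 windows) and 19 of the 23 replication genes (22 windows), and motifs were searched on both strands. The CHR element (TTTGAA) was in 15 mitosis windows (71.4%) and in 4 replication windows (18.2%), against 17.9% of all 32851 windows. An E2F motif (TTCCCGC or TTGGCGC) was in 12 replication windows (54.5%) and in 3 mitosis windows (14.3%), against 6.81% of all windows. The CCAAT box (CCAAT) was frequent in both classes, in 17 mitosis windows (81.0%) and 15 replication windows (68.2%), against 37.4% of all. Its reverse letters, ATTGG, share bases with TTGGCGC, and TTCCCGC can share bases with CCAAT, so these matches are not fully separate. A match is only a match of letters in the window, and some genes have more than 1 window.

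**Figure D1:**
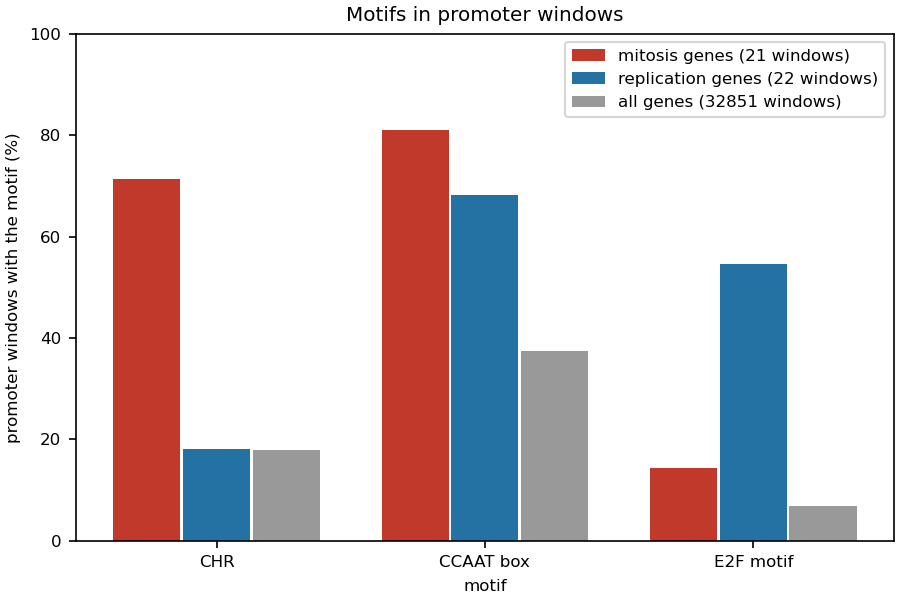
Share of promoter windows (percent, from 0) that hold a CHR, CCAAT or E2F motif for mitosis genes, replication genes and all windows. CHR reaches 71.4% in mitosis windows against 18.2% in replication windows, and E2F 54.5% in replication windows against 14.3% in mitosis windows.

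The 120 bases before the start are shown for 4 mitosis genes whose values are given below. They were chosen to show the CHR and CCAAT letters, and matches to any of the searched motifs are in capitals. Ccnb2 lies at chr9:70421555-70421674, Top2a at chr11:99024190-99024309, Kif11 at chr19:37376262-37376381 and Mki67 at chr7:135716380-135716499, on the minus, minus, plus and minus strand in turn.
Ccnb2: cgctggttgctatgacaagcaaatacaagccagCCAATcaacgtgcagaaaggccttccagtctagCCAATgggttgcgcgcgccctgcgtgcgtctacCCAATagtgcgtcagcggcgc
Top2a: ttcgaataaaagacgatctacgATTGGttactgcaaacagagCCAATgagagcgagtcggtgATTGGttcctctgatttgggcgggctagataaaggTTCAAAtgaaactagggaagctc
Kif11: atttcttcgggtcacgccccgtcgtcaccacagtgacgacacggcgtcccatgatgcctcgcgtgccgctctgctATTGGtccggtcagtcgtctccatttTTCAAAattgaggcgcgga
Mki67: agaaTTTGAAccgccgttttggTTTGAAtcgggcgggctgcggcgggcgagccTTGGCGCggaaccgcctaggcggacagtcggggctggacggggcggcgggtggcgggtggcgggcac
The Ccnb2 stretch has 3 CCAAT boxes, beginning at bases -87, -54 and -21 from the start, and its CHR elements, at -167 and 5, lie outside the stretch. Top2a has a CHR element on the reverse strand at -23 and Kif11 has one at -19, each downstream of a CCAAT box. Mki67 has 2 CHR elements, at -116 and -98, with an E2F motif at -67.

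The same stretch is shown for 4 replication genes with large differences between arrays, to show the E2F letters. Prim1 lies at chr10:128015095-128015214, Rrm1 at chr7:102441575-102441694, Mcm6 at chr1:128359706-128359825 and E2f8 at chr7:48881597-48881716, on the plus, plus, minus and minus strand in turn.
Prim1: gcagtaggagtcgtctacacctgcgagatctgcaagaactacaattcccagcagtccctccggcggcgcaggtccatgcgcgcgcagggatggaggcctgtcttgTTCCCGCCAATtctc
Rrm1: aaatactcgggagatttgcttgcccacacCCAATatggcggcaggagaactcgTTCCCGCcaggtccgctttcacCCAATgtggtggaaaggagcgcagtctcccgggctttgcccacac
Mcm6: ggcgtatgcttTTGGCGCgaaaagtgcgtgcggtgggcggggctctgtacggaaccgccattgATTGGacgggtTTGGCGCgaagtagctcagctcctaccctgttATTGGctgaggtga
E2f8: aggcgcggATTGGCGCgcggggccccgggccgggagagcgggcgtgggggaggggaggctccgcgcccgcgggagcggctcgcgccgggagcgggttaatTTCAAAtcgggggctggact
Mcm6 has 2 E2F motifs, at -109 and -46, and E2f8 has 1 at -111 that shares letters with a reverse CCAAT box. Rrm1 has an E2F motif at -67 between CCAAT boxes at -91 and -45. In Prim1 the E2F motif at -15 runs into a CCAAT box at -9. E2f8 also carries a CHR element at -20.

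Across the arrays, the members of both classes were high in monocytes, low in Ly6C-low microglia and uneven in Ly6C-high microglia. The 24 mitosis genes averaged 5.94, 7.05 and 5.68 in Ly6C-high replicates 1, 2 and 3. They averaged 5.45, 5.43 and 5.56 in the Ly6C-low arrays and 6.99, 6.83 and 6.18 in the monocyte arrays. The Ly6C-low arrays lay below every other array, and Ly6C-high replicate 2 lay above all 3 monocyte arrays. The 23 replication genes averaged 6.35, 7.11 and 6.19 in Ly6C-high arrays, 6.21, 6.19 and 6.29 in Ly6C-low arrays and 7.46, 7.46 and 6.90 in monocytes. For replication the Ly6C-low arrays and Ly6C-high replicates 1 and 3 lay together between 6.19 and 6.35, and Ly6C-high replicate 2 was within the range of the monocyte arrays. In bulk RNA a difference of this kind can reflect the number of dividing cells or the RNA per cell, which cannot be told apart.

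**Figure D2:**
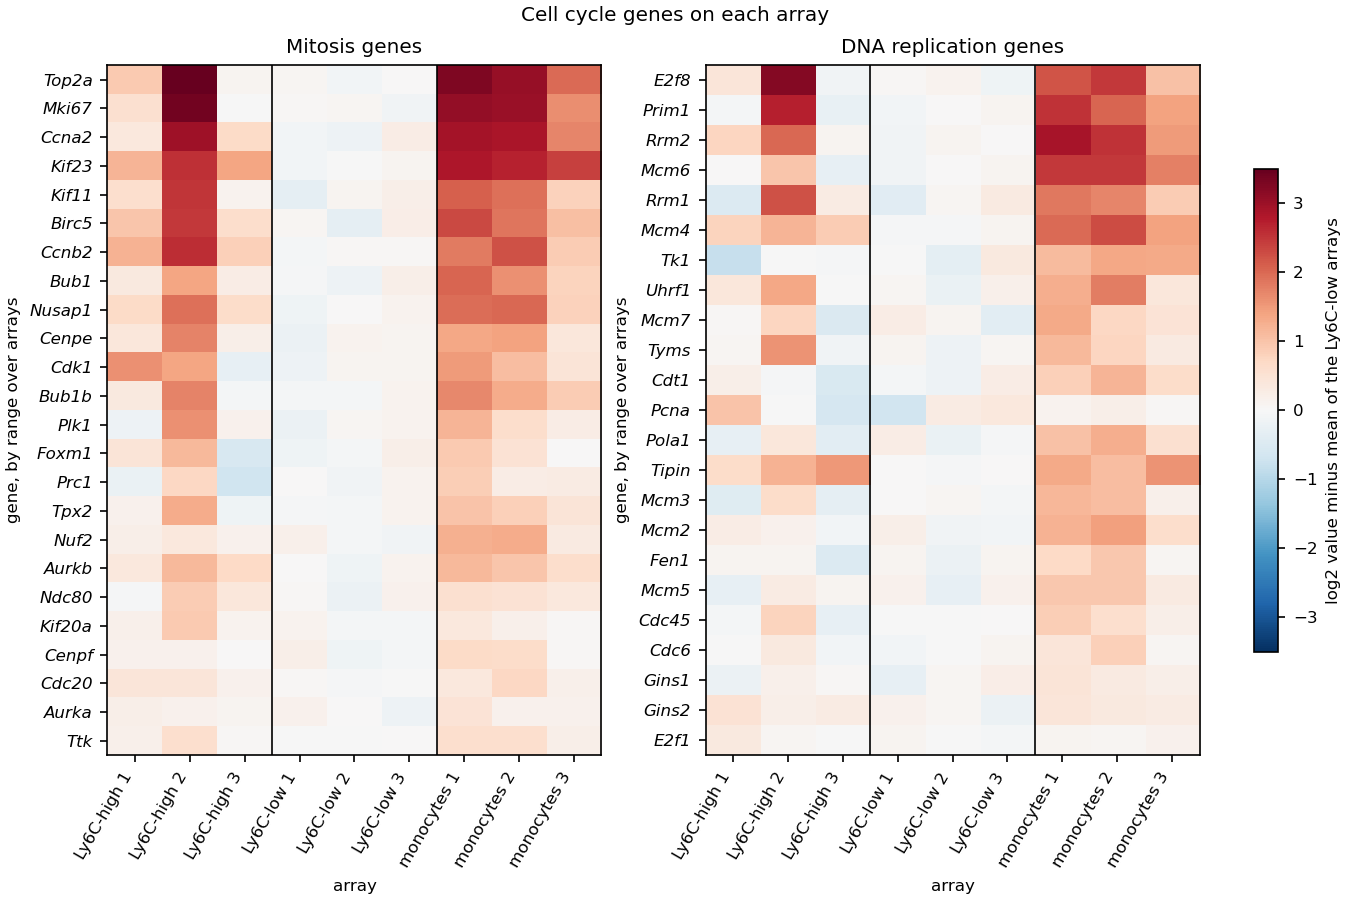
Log2 intensity of the 47 measured members (rows, by class) in the 9 arrays (columns, by group), coloured by each gene's difference from its mean over the 3 Ly6C-low arrays. Most mitosis genes are high in Ly6C-high replicate 2 and in monocyte replicates 1 and 2, and low in the 3 Ly6C-low arrays.

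**Figure D3:**
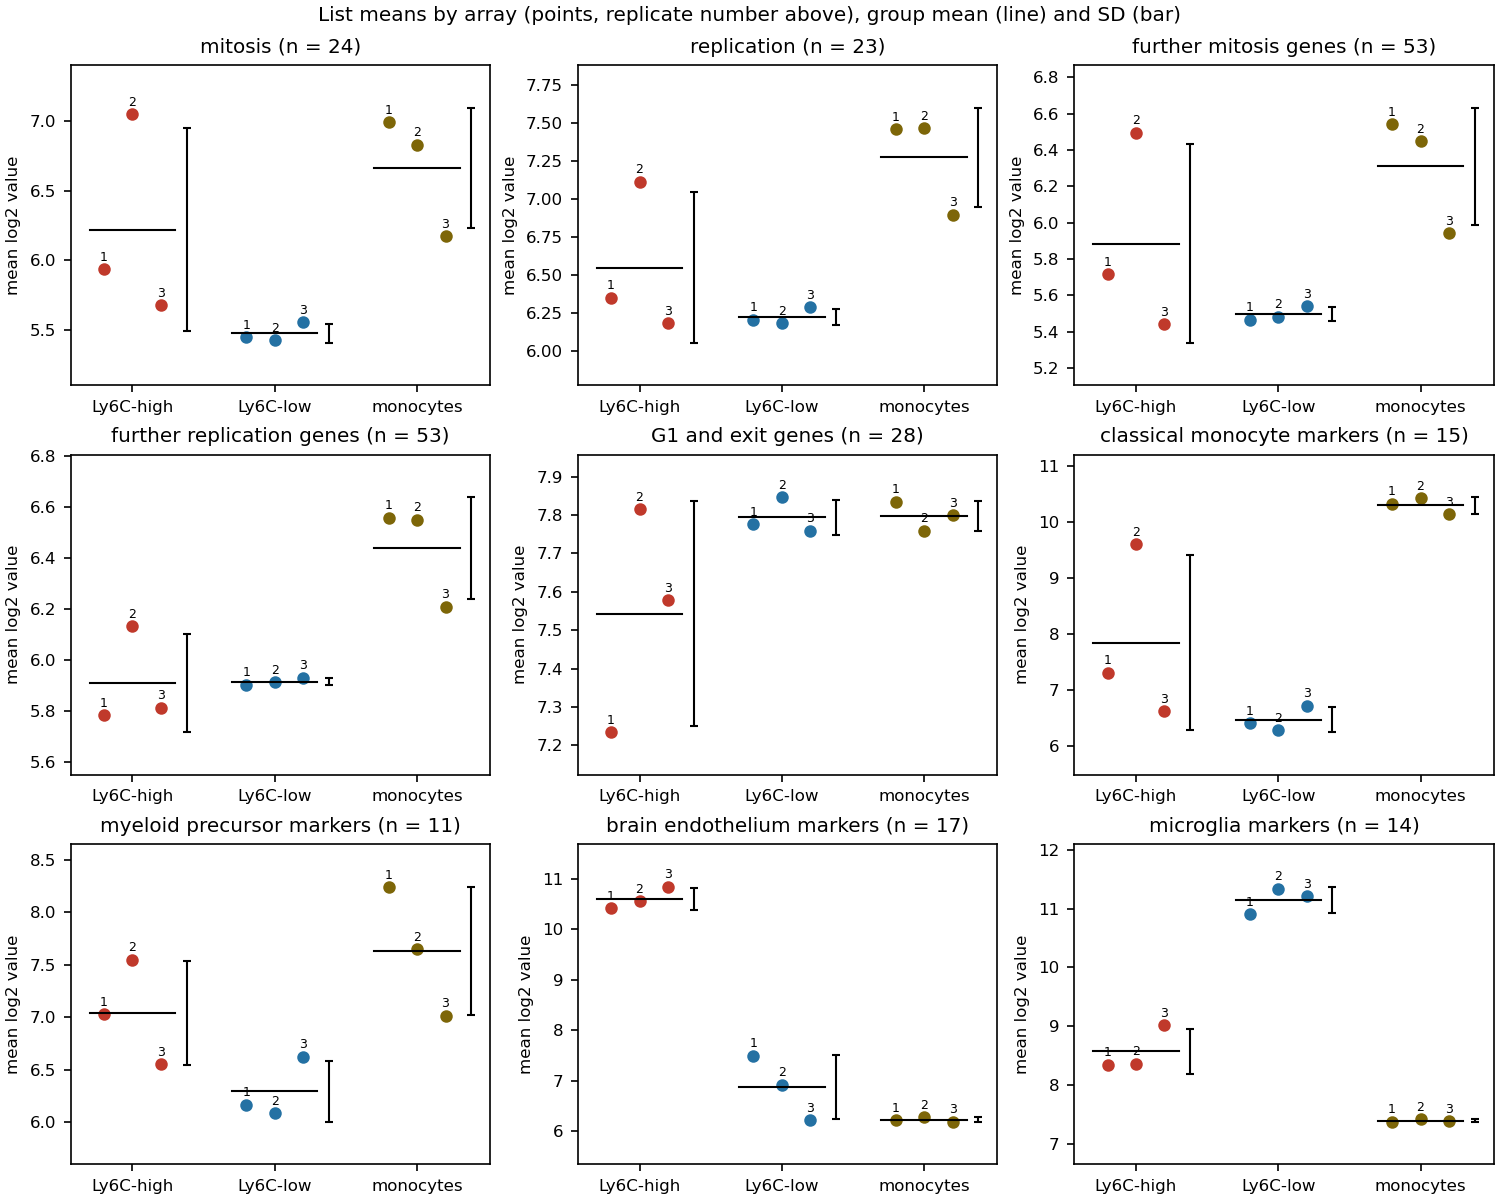
Mean log2 intensity of each gene list (panels) per array (points, with replicate number), with the group mean as a line and the SD over 3 arrays as a bar; each panel has its own axis range. The mitosis mean of Ly6C-high replicate 2 (7.05) is above those of the other microglia arrays (5.43 to 5.94), as is its classical monocyte marker mean (9.61 against 6.28 to 7.31).

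Among the mitosis genes, those with the widest range over the arrays were the proliferation marker Mki67 and the DNA topoisomerase Top2a. Mki67 stood at 6.88, 9.69 and 6.30 in Ly6C-high replicates 1, 2 and 3, at 6.36, 6.38 and 6.18 in Ly6C-low replicates and at 9.39, 9.34 and 7.94 in monocyte replicates, always in this order below. Top2a stood at 6.44, 9.13 and 5.63 in Ly6C-high arrays, 5.60, 5.43 and 5.53 in Ly6C-low arrays and 8.78, 8.56 and 7.50 in monocytes. For both genes replicate 2 of the Ly6C-high group was the highest of all 9 arrays, and replicates 1 and 3 were below the lowest monocyte array. Top2a has a second probe set that stayed between 4.58 and 5.38 in every array and did not show this pattern.

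The cyclins Ccna2 and Ccnb2, partners of the cyclin-dependent kinases that drive entry into mitosis, followed the same outline. Ccna2 stood at 6.20, 8.82 and 6.52 in Ly6C-high arrays, 5.75, 5.67 and 6.11 in Ly6C-low arrays and 8.75, 8.71 and 7.56 in monocytes. Ccnb2 stood at 7.85, 9.23 and 7.48, at 6.58, 6.67 and 6.68, and at 8.45, 8.88 and 7.54 in the same groups. All Ly6C-high arrays of Ccna2 and Ccnb2 were above all Ly6C-low arrays. Cdk1, the mitotic kinase itself, stood at 7.47, 7.22 and 5.56 in Ly6C-high arrays, so here replicate 1 was the highest.

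The chromosomal passenger genes are Aurkb, a kinase that corrects spindle attachments, and Birc5, which encodes survivin. Aurkb stood at 6.85, 7.62 and 7.16 in Ly6C-high arrays, 6.49, 6.34 and 6.61 in Ly6C-low arrays and 7.60, 7.46 and 7.09 in monocytes. Birc5 stood at 6.86, 8.36 and 6.49, at 5.96, 5.58 and 6.12, and at 8.21, 7.77 and 6.94 in those groups. In both genes the Ly6C-high arrays were above the Ly6C-low arrays without overlap. Aurka, the related spindle pole kinase, ranged only from 6.02 to 6.68 over the arrays.

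The kinesins supply the spindle and the midbody. Kif11, the motor that pushes spindle poles apart, stood at 5.41, 7.33 and 4.95 in Ly6C-high arrays, 4.51, 4.93 and 5.05 in Ly6C-low arrays and 6.92, 6.76 and 5.64 in monocytes. Kif23, a motor of cytokinesis, stood at 6.93, 8.30 and 7.10, at 5.63, 5.72 and 5.84, and at 8.57, 8.43 and 8.12 in those groups. Kif23 was higher in every Ly6C-high array than in every Ly6C-low array, while for Kif11 the groups overlapped.

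Genes of the kinetochore and spindle include Bub1, a checkpoint kinase, Nuf2, a part of the Ndc80 complex, and Nusap1, a microtubule-bundling protein. Bub1 stood at 4.30, 5.36 and 4.24 in Ly6C-high arrays, 3.94, 3.79 and 4.17 in Ly6C-low arrays and 6.00, 5.57 and 4.76 in monocytes. Nusap1 stood at 5.85, 7.12 and 5.83, at 5.04, 5.22 and 5.33, and at 7.16, 7.22 and 6.01 in those groups. Nuf2 stood at 4.84, 5.02 and 4.80, at 4.82, 4.57 and 4.52, and at 5.87, 5.93 and 4.94, with Ly6C-high replicate 2 less than 1 log2 unit from its neighbours. Bub1 and Nuf2 were dim, below the median of all gene means (6.13) in every array.

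The other mitosis genes were read in the same way. Plk1, the polo-like kinase of mitotic entry, reached 7.13 in Ly6C-high replicate 2 against 5.32 to 5.66 in the other microglia arrays and 5.77 to 6.71 in monocytes. Cenpe, a kinetochore motor, reached 6.55 against 4.60 to 5.21 and Tpx2, a spindle assembly factor, 6.65 against 5.18 to 5.49 in the other microglia arrays. Bub1b, a checkpoint protein, reached 6.54 against 4.73 to 5.13, and Foxm1, the transcription factor of this gene class, 7.48 against 5.78 to 6.80. In these 5 genes replicate 2 was above every other microglia array. The kinetochore genes Cenpf, at 4.76 to 5.12 in microglia, and Ttk, at 4.24 to 4.83, and the anaphase activator Cdc20, at 5.99 to 6.43, ranged over less than 1 log2 unit in microglia. Ndc80 and Kif20a, a motor of the midzone, led in replicate 2 by 0.48 and 0.74.

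Among the replication genes, the Mcm subunits form the helicase that opens the DNA. Mcm2 stood at 6.66, 6.57 and 6.32 in Ly6C-high arrays, 6.62, 6.28 and 6.33 in Ly6C-low arrays and 7.63, 7.83 and 7.04 in monocytes. Mcm4 stood at 6.55, 6.94 and 6.64, at 5.72, 5.71 and 5.84, and at 7.73, 8.05 and 7.17 in those groups. Mcm6 stood at 5.85, 6.80 and 5.54, at 5.71, 5.86 and 5.93, and at 8.32, 8.31 and 7.61. Every monocyte array was above every microglia array for Mcm2, Mcm4 and Mcm6, and only Mcm4 separated the 2 microglia groups.

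Ribonucleotide reductase makes the deoxynucleotides and consists of the products of Rrm1 and Rrm2. Rrm1 stood at 6.07, 8.77 and 6.83 in Ly6C-high arrays, 6.16, 6.60 and 6.87 in Ly6C-low arrays and 8.37, 8.26 and 7.44 in monocytes. Rrm2 stood at 5.88, 7.13 and 5.22, at 5.01, 5.22 and 5.13, and at 8.0, 7.65 and 6.61 in those groups. Tk1, the thymidine kinase, stood at 7.40, 8.20 and 8.19, at 8.19, 7.88 and 8.57, and at 9.33, 9.57 and 9.53. Thus Rrm1 in Ly6C-high replicate 2 exceeded the monocytes, while Tk1 there lay within the range of the other microglia arrays. A second Tk1 probe set, at 6.38 to 6.92 in microglia and 7.30 to 7.63 in monocytes, was also lower in every microglia array. Its means were 6.69, 6.75 and 7.49 in Ly6C-high microglia, Ly6C-low microglia and monocytes. Those of the brighter set, 7.93, 8.21 and 9.48, lay further apart, and the Tk1 changes given below are of that set.

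The polymerase alpha and primase subunits Pola1 and Prim1 start new strands. Prim1 stood at 4.53, 7.33 and 4.33 in Ly6C-high arrays, 4.50, 4.60 and 4.70 in Ly6C-low arrays and 7.13, 6.63 and 6.01 in monocytes. Pola1 stood at 5.29, 5.98 and 5.21, at 5.85, 5.36 and 5.53, and at 6.61, 6.84 and 6.13 in those groups. Prim1 in Ly6C-high replicate 2 was above all monocyte arrays, whereas Pola1 was below them.

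The remaining replication genes with values that stand out are a licensing factor, a fork protein and a transcription factor. Cdt1, which loads the helicase, stood at 6.73, 6.47 and 5.99 in Ly6C-high arrays, 6.45, 6.34 and 6.78 in Ly6C-low arrays and 7.36, 7.70 and 7.15 in monocytes. Tipin, the partner of Timeless at the fork, stood at 6.49, 7.07 and 7.38, at 5.86, 5.82 and 5.87, and at 7.17, 6.92 and 7.44 in those groups. E2f8, an atypical E2F that represses E2F targets, stood at 5.25, 8.05 and 4.70, at 4.87, 4.96 and 4.67, and at 7.04, 7.31 and 5.87. E2f8 had the widest range of the replication genes and was higher in Ly6C-high replicate 2 than in any monocyte array. For Tipin Ly6C-high replicates 2 and 3 lay within the monocyte range and replicate 1 below it, and replicate 3, not 2, was the highest of its group. E2f1 was flat, between 5.72 and 6.12, and Pcna, the sliding clamp, was bright in all arrays at 10.54 to 12.21. The second Pcna probe set, at 10.21 to 10.93, ranked the arrays differently.

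Of the other replication genes, Tyms, which encodes thymidylate synthase, reached 7.64 in Ly6C-high replicate 2 against 5.89 to 6.15 in the other microglia arrays and 6.37 to 7.20 in monocytes. Uhrf1, which reads hemimethylated DNA behind the fork, reached 7.25 against 5.66 to 6.29, and Cdc45, a helicase cofactor, 6.96 against 5.89 to 6.18 in the other microglia arrays. Mcm3 and Mcm7 led in replicate 2 by 0.58 and 0.49, and Mcm5 and the licensing factor Cdc6 by 0.15 and 0.25. Replicate 2 did not lead for the helicase cofactors Gins1 and Gins2 or for the flap nuclease Fen1, which stood at 5.21, 7.72 and 5.99 there.

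The array that separates the classes is Ly6C-high replicate 2, and since it was picked with these values known, its position is given without a test. It was the highest of the 6 microglia arrays for 20 of 24 mitosis genes (83.3%) and for 14 of 23 replication genes (60.9%), against 13.4% of all genes. Over all genes Ly6C-high replicate 1, with the narrowest interquartile range, was the highest most often, for 7176 of 19937 genes. Among the members replicate 1 was highest for 3 mitosis and 4 replication genes. Replicate 2 led by at least 1 log2 unit for 13 mitosis genes (54.2%) and 5 replication genes (21.7%), against 1.18% of all genes. Those 5 replication genes are E2f8, Prim1, Rrm1, Tyms and Rrm2. The median lead over the mean of Ly6C-high replicates 1 and 3 was 1.23 for mitosis and 0.40 for replication, against -0.07 for all genes. For the other cell cycle genes described below it was 0.72 for mitosis, 0.32 for replication and 0.63 for G1 phase and exit. The replication lead was thus not above that of the G1 and exit genes. The list mean of replicate 2 exceeded the next microglia array by 1.11 for mitosis and by 0.76 for replication.

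Ly6C-high replicates 1 and 3 were much nearer to the Ly6C-low arrays. Their mean lay above that of Ly6C-low arrays by a median of 0.28 for mitosis genes and differed by -0.09 for replication genes, against 0.06 for all genes. The largest such differences were those of Kif23 (1.28), Tipin (1.08), Ccnb2 (1.02) and Mcm4 (0.84). Prc1, which bundles the central spindle, differed by -0.46.

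Set against the monocyte arrays, replicate 2 was above all 3 for 14 of 24 mitosis genes (58.3%) and 4 of 23 replication genes (17.4%), while 38.2% of all genes were so. It lay within the monocyte range for 9 genes of each class (37.5% of mitosis and 39.1% of replication genes), against 27.3% of all genes. Of the mitosis genes, the largest excesses over the highest monocyte array were those of Kif20a (0.55), Plk1 (0.42) and Kif11 (0.41). Of the replication genes they were E2f8 (0.75), Tyms (0.44), Rrm1 (0.39) and Prim1 (0.19). The Mcm genes instead differed from the highest monocyte array by -0.50 for Mcm3 to -1.51 for Mcm6. Over the 47 genes, the lead of replicate 2 over replicates 1 and 3 and the difference of monocytes from Ly6C-low arrays, which share no array, had a Pearson correlation of 0.71 and a Spearman correlation of 0.68. Over the 53 other mitosis genes described below they were 0.48 and 0.46. Over the 53 other replication genes they were 0.33 and 0.28, close to the 0.34 and 0.27 of all genes. The points are genes read on the same arrays and are not independent.

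**Figure D4:**
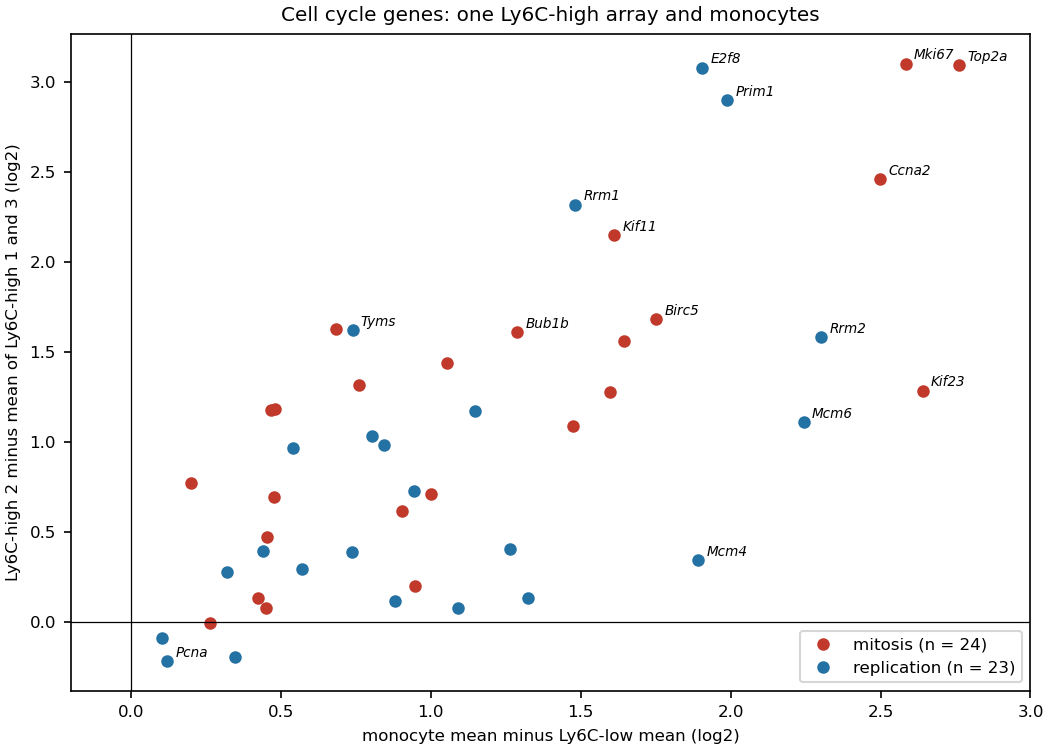
For each measured member, the log2 lead of Ly6C-high replicate 2 over the mean of replicates 1 and 3 against the log2 difference of the monocyte mean from the Ly6C-low mean. Mki67, Top2a and E2f8 lead by about 3 log2 units (3.10, 3.09 and 3.08), and Tk1, Mcm2 and Cdt1 differ in monocytes with little lead (0.40, 0.08 and 0.11).

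Other genes moved with these members in replicate 2. It was the highest microglia array for 13 of 15 classical monocyte markers, 12 of them by at least 1 log2 unit. It was also highest for 6 of 11 myeloid precursor markers, but only 2 of them by at least 1 log2 unit. The lead of the 11 precursor markers over replicates 1 and 3 had a median of 0.24 and ranged from -0.47 to 3.14. Plac8 stood at 7.51, 10.51 and 5.62 in the Ly6C-high arrays against 11.46 to 11.60 in monocytes. The precursor genes Mpo, at 7.96, 10.04 and 8.14, and Ctsg, at 6.14, 9.16 and 5.90, were also highest there among microglia. The precursor marker mean was 7.03, 7.55 and 6.55 in Ly6C-high arrays, 6.09 to 6.62 in Ly6C-low arrays and 7.01 to 8.24 in monocytes. The neutrophil marker mean of replicate 2 was 6.96, above the 5.77 and 5.91 of Ly6C-high replicates 1 and 3. In Ly6C-low replicates 1, 2 and 3 it was 6.58, 6.90 and 9.30. The lead of the 12 neutrophil markers over Ly6C-high replicates 1 and 3 had a median of 0.22 and ranged from -0.76 to 5.14. The endothelium mean of replicate 2, 10.6, was close to those of replicates 1 and 3. What part monocytes, their precursors or neutrophils have in these cell cycle values was not tested.

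Monocyte replicate 3 was the lowest of its group for 22 of 24 mitosis genes and 20 of 23 replication genes, against 33.9% of all genes. The other 2 monocyte arrays were above it by a median of 0.67 for mitosis, 0.63 for replication and 0.00 for all genes. Precursor markers were also lower there, at a mean of 7.01 against 8.24 and 7.65. So were erythroid markers, at 7.28 against 7.62 and 8.39. T and NK cell markers were higher there, at 8.19 against 7.62 and 7.44. What part any of these cells have in the cell cycle values was not tested. The spread of the members within groups was wide. The median SD of mitosis genes was 0.76 in Ly6C-high arrays, 0.15 in Ly6C-low arrays and 0.46 in monocytes, and that of replication genes was 0.45, 0.18 and 0.41, against 0.27, 0.14 and 0.11 for all genes.

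Comparison of the 2 microglia groups asked whether Ly6C-high microglia carry more cell cycle RNA than Ly6C-low microglia. Only 4 of the 47 genes rose, Kif23 and Aurkb of mitosis and Tipin and Mcm4 of replication, and none fell. The test was limma's moderated test of 3 arrays against 3, two-sided, with adjustment over all genes. Its estimate of the spread was shared by all 9 arrays, monocytes included. Kif23 was higher by 1.71 ± 0.32 (SE) on the log2 scale, 3.28-fold (adjusted p = 0.00791). Aurkb was higher by 0.73 ± 0.21 (adjusted p = 0.0497), Tipin by 1.13 ± 0.22 (adjusted p = 0.00956) and Mcm4 by 0.95 ± 0.21 (adjusted p = 0.0174). Among all genes 4.49% were called higher and 11% lower, and the members called higher, 8.33% of mitosis and 8.7% of replication genes, are 2 genes in each class. Endothelium markers, all 17 of which were higher in the Ly6C-high group, separate the same groups, and their part in these 4 calls was not tested. Of all calls 29.1% were in the higher direction, a share that rose to 41.7% with quantile normalization and 43.9% with cyclic loess.

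The mitosis genes had a median log2 change of 0.67 with 23 of 24 positive, and replication genes had a median of 0.14 and 18 of 23 positive. The median of all genes was 0.05. The groups did not overlap, with Ly6C-high above, for 11 of 24 mitosis genes and 4 of 23 replication genes, against 12.9% of all genes. Top2a, Ccna2 and Birc5 had log2 differences of 1.54, 1.34 and 1.35 that missed the threshold (adjusted p = 0.24, 0.215 and 0.108), with replicate 2 the highest array in each. Without Ly6C-high replicate 2, the medians were 0.28 for mitosis and -0.09 for replication. As that array was picked with these values known, the fit without it is a description and no separate test. Kif23 (1.28, adjusted p = 0.00134), Mcm4 (0.84, adjusted p = 0.0415) and Tipin (1.08, adjusted p = 0.0235) were then still called, when 5.96% of all genes were called higher and 13.5% lower.

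Kif23 and Tipin kept their call in all 19 alternatives, with adjusted p between 0.00134 and 0.0337 for Kif23 and between 0.00164 and 0.0403 for Tipin. The lowest value for Kif23 is that of the fit without Ly6C-high replicate 2, which is no separate test. Aurkb lost its call in 13 alternatives, among them each array omitted except Ly6C-high replicate 1, with adjusted p up to 0.164. Mcm4 lost it in 4, namely without Ly6C-low replicate 1, 2 or 3 (adjusted p up to 0.0647) and with a precision weight per group (adjusted p = 0.154).

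**Figure D5:**
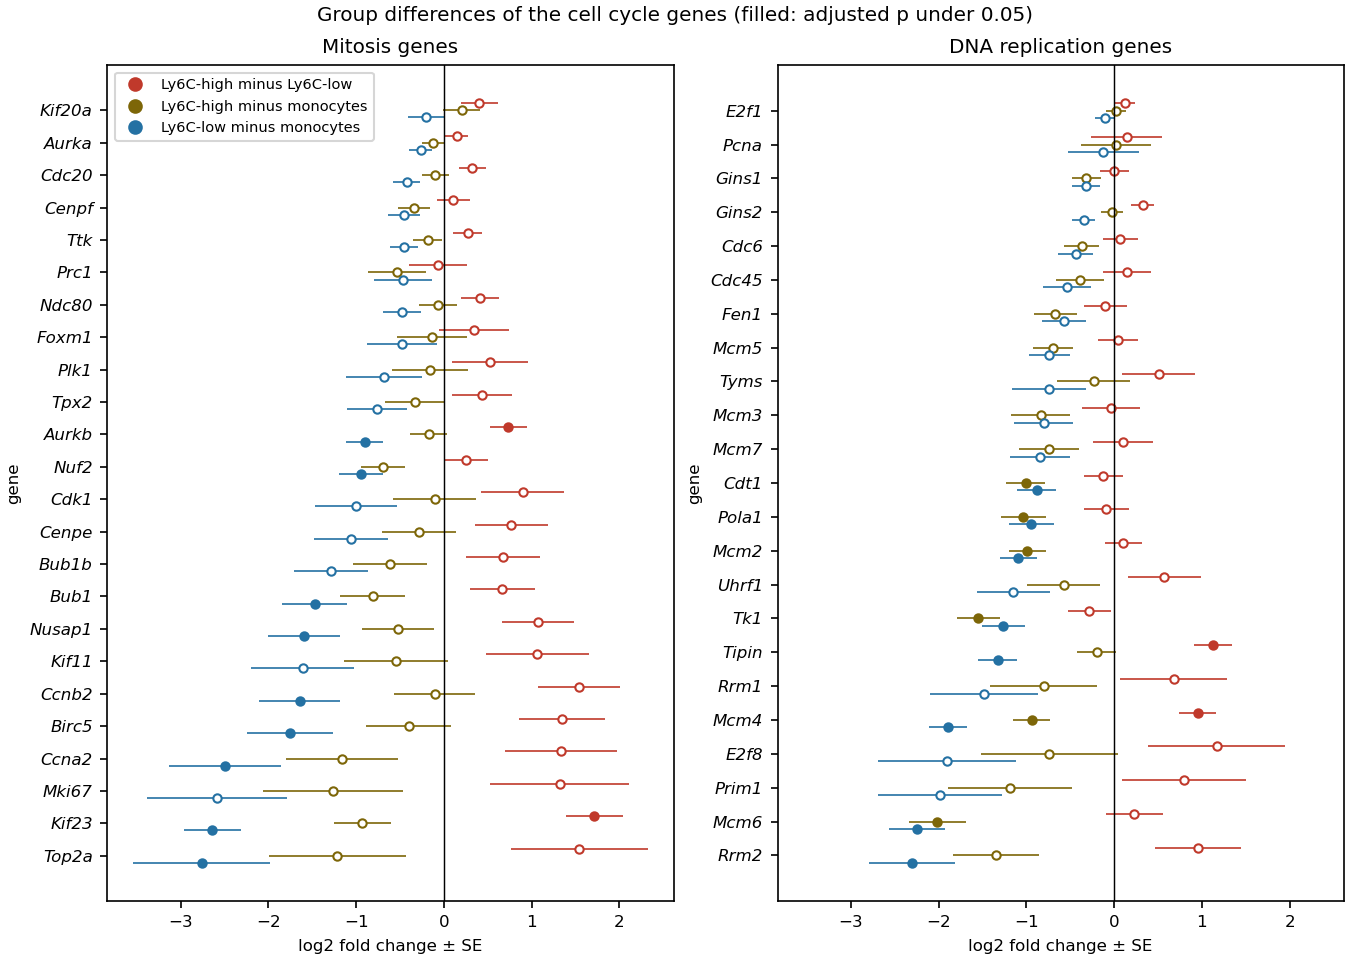
Log2 fold change of each measured member in the 3 comparisons, with SE bars and the genes past the threshold (adjusted p under 0.05) marked. Ly6C-low microglia against monocytes lies below 0 for all 47 genes, and Ly6C-high against Ly6C-low microglia is past the threshold only for Kif23, Aurkb, Tipin and Mcm4.

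The comparison of Ly6C-high cells with spleen monocytes asked how far the group reaches the monocyte level. Of the replication genes 6 of 23 fell, namely Mcm2, Mcm4, Mcm6, Cdt1, Pola1 and Tk1, and none rose. Mcm6 was lower by a log2 change of -2.01 ± 0.32 (4.04-fold lower, adjusted p = 0.00325) and Tk1 by -1.55 ± 0.25 (2.92-fold lower, adjusted p = 0.00314). Mcm2 changed by -0.99 ± 0.21 (adjusted p = 0.0123), Mcm4 by -0.94 ± 0.21 (adjusted p = 0.0159), Cdt1 by -1.0 ± 0.22 (adjusted p = 0.0144) and Pola1 by -1.03 ± 0.26 (adjusted p = 0.0223). Among all genes 6.88% were higher and 14.6% lower. Higher calls were 32% of all calls, against 46.4% with quantile normalization and 45% with cyclic loess. Lists of other cells also separated these groups. Neutrophil markers were at 5.77 to 6.96 in Ly6C-high arrays against 10.0 to 10.6 in monocytes. B and plasma cell markers were at 5.59 to 5.96 against 7.83 to 8.25, and T and NK cell markers at 5.39 to 5.67 against 7.44 to 8.19. The part of such cells in the calls was not tested.

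No mitosis gene passed in this comparison with limma, and at an unadjusted p under 0.05 there were 0 higher and 2 lower. No other tool was run. The median was -0.34 for mitosis and -0.74 for replication, against 0.09 for all genes. The Ly6C-high arrays were all below the monocytes for 0 of 24 mitosis and 8 of 23 replication genes, against 21.9% of all genes. These counts depended on Ly6C-high replicate 2. Its omission lowers the Ly6C-high mean of most members by construction. As replicate 2 was picked with these values known, the counts without it describe this dependence and are no separate test. Without it, 9 mitosis genes were lower (Mki67, Top2a, Bub1, Bub1b, Ccna2, Kif11, Kif23, Tpx2 and Prc1) and 15 replication genes, when 11.6% of all genes were higher and 19% lower, and the medians were -0.76 and -1.01. Without monocyte replicate 3 there were 2 mitosis calls. Without monocyte replicate 1 or 2 there were 3 replication calls.

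Without replicate 2, the log2 change was -2.30 for Mki67, -2.25 for Top2a, -2.16 for Prim1 and -1.76 for E2f8. Replicate 2 was the highest Ly6C-high array for each of these genes. Leaving it out thus lowers the group mean by construction, and no p-value is given for them. Mcm6 and Tk1 were called in all 19 alternatives, with adjusted p between 0.000343 and 0.0174 for Mcm6. The lowest value for Mcm6 is that of the fit without Ly6C-high replicate 2, which is no separate test. Mcm2 was lost without monocyte replicate 1 (adjusted p = 0.0517), Cdt1 without monocyte replicate 2 (0.0577) and Mcm4 without either (0.0608 and 0.0505). With every array kept, Mcm2 (adjusted p = 0.0885) and Mcm4 (0.107) were also lost with a precision weight per group and Cdt1 (0.082) with quantile normalization. Mcm4 was lost in 4 alternatives in all. Pola1 was lost in 6, among them those without Ly6C-high replicate 1 or 3 or monocyte replicate 1 or 2 (adjusted p up to 0.0846). Its remaining losses were in alternatives that kept every array.

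Comparison of Ly6C-low microglia with spleen monocytes gave the most calls among the 47 members, though not among all genes, where 14.5% were called against 21.5% for Ly6C-high microglia against monocytes. All 47 genes had a negative log2 change, and 9 of 24 mitosis genes and 8 of 23 replication genes fell, with none higher. The mitosis genes were Top2a, Aurkb, Bub1, Ccna2, Ccnb2, Kif23, Nusap1, Birc5 and Nuf2. The replication genes were Mcm2, Mcm4, Mcm6, Rrm2, Tipin, Cdt1, Pola1 and Tk1. Among all genes 6.8% were higher and 7.71% lower. The median was -0.97 for mitosis and -0.88 for replication, against 0.05 for all genes, and the groups did not overlap for 20 of 24 and 18 of 23 genes, against 19.1% of all genes. Lists of other spleen cells also separated these groups. B and plasma cell markers were at 5.48 to 5.75 in Ly6C-low arrays against 7.83 to 8.25 in monocytes. Erythroid markers were at 6.08 to 6.25 against 7.28 to 8.39. T and NK cell markers were at 5.40 to 5.59 against 7.44 to 8.19, and neutrophil markers at 6.58 to 9.30 against 10.0 to 10.6. Their part in the calls was not tested.

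Kif23 fell by a log2 change of -2.64 ± 0.32, 6.24-fold (adjusted p = 0.000881), and Mcm4 by -1.89 ± 0.21, 3.71-fold (adjusted p = 0.000551). Mcm6 changed by -2.24 ± 0.32 (adjusted p = 0.00202), Rrm2 by -2.30 ± 0.49 (adjusted p = 0.0145) and Top2a by -2.76 ± 0.78 (adjusted p = 0.0487). Ccna2 changed by -2.50 ± 0.64 (adjusted p = 0.0326), Birc5 by -1.75 ± 0.49 (adjusted p = 0.0461), Ccnb2 by -1.64 ± 0.46 (adjusted p = 0.0478) and Nusap1 by -1.60 ± 0.41 (adjusted p = 0.0335). Bub1 changed by -1.47 ± 0.37 (adjusted p = 0.0304), Nuf2 by -0.95 ± 0.25 (adjusted p = 0.0364) and Aurkb by -0.90 ± 0.21 (adjusted p = 0.022). Of the replication genes Tipin changed by -1.33 ± 0.22, Tk1 by -1.26 ± 0.25, Mcm2 by -1.09 ± 0.21, Pola1 by -0.95 ± 0.26 and Cdt1 by -0.88 ± 0.22. Mki67, with a larger change of -2.58 ± 0.80, missed the threshold (adjusted p = 0.067), as did Prim1 (-1.99 ± 0.71, adjusted p = 0.109) and E2f8 (-1.91 ± 0.78, adjusted p = 0.165).

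Of the mitosis calls only Kif23 held in all 19 alternatives. The other 8 were each lost without Ly6C-low replicate 1 or 2 or monocyte replicate 1 or 2 (adjusted p up to 0.164), and 7 of them, all but Aurkb, without Ly6C-low replicate 3. Top2a, Ccnb2 and Birc5 were lost without Ly6C-high replicate 1, and Top2a without monocyte replicate 3. The count was 1 without Ly6C-low replicate 1 or 2 or monocyte replicate 1 or 2, 2 without Ly6C-low replicate 3 and 15 without Ly6C-high replicate 2, whose spread enters the shared estimate. In that last fit 7.61% of all genes were higher and 9.47% lower. Of the replication calls Mcm2, Mcm4, Mcm6, Tipin and Tk1 held in all 19, and 5 remained without Ly6C-low replicate 1 or monocyte replicate 1 or 2. In all, 17 members were past the threshold in at least 1 comparison, and all 17 were so between Ly6C-low microglia and monocytes. The 3 comparisons share arrays in pairs, so their calls are not independent.

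Of the other cell cycle genes, 53 of mitosis, 53 of replication and 28 of G1 phase and cell cycle exit were measured. Between the microglia groups 4 of the 134 rose and 10 fell, against 4.49% and 11% of all genes. The split was 7 higher and 7 lower with quantile normalization and 6 and 6 with cyclic loess, so no direction is given for these genes as a group. Those that rose were Stmn1, a microtubule destabiliser (1.55, adjusted p = 0.0119), E2f7 (0.55, adjusted p = 0.0113), Kif18a (0.49, adjusted p = 0.0356) and Dut (0.44, adjusted p = 0.0447). Of the 10 that fell, 8 were in the G1 and exit list, among them the growth factor target Myc (-1.96, adjusted p = 0.00048), Cdk6 (-1.94, adjusted p = 0.00522), cyclin D1, Ccnd1 (-1.61, adjusted p = 0.0181), and Ccng1 (-1.31, adjusted p = 0.0245). The other 2 were E2f3 (-1.75, adjusted p = 0.0205) and Donson (-1.43, adjusted p = 5.48e-05). The median of the G1 and exit list changed sign between scalings, -0.06 as deposited, 0.06 with quantile normalization and 0.10 with cyclic loess, so no direction is given for that list. These 14 calls became 5 when replicate 2 of the Ly6C-low group was left out and 7 when its replicate 3 was.

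Against monocytes, 3 of the 134 were higher in Ly6C-high microglia and 23 lower, against 6.88% and 14.6% of all genes, so the lower calls were near the background share. Gas6 (2.95), Cdkn1c (1.32) and Tob1 (1.15) were the higher ones, and Ccng1 (-2.34), Cenpa (-2.10), Cdk6 (-1.77), Dbf4 (-1.61), Donson (-1.60) and Myc (-1.52) the lowest. Of the 23, 14 were replication genes. The 26 calls became 52 without Ly6C-high replicate 2, 14 without monocyte replicate 1 and 15 without monocyte replicate 2.

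In Ly6C-low microglia against monocytes 4 were higher, Gas6 (2.64), Ccnd1 (2.15), Btg2 (1.18) and Ccng2 (1.09), and 22 lower, against 6.8% and 7.71% of all genes. The lowest were Smc4 (-2.35), Cenpa (-2.35), Mad2l1 (-2.27), Cks1b (-2.07), Ube2c (-1.68) and Dbf4 (-1.65). Cenpa, the centromeric histone, and Smc4, a condensin subunit, were lower by about as much as Kif23. The 26 calls ranged from 11 without Ly6C-low replicate 1 or monocyte replicate 2 to 46 without Ly6C-high replicate 2, and were 41 without monocyte replicate 3, 12 without monocyte replicate 1 or Ly6C-low replicate 2, and 13 without replicate 3 of the latter group. Ly6C-high replicate 2 was the highest microglia array for 43 of 53 of the other mitosis genes, 25 of 53 of the other replication genes and 11 of 28 of the G1 and exit genes, against 13.4% of all genes.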

How the data were processed

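RNA of 9 sorted cell samples was read on Affymetrix arrays, 3 in each group. The authors deposited 1 table of log2 intensities; the submitters' processing notes name RMA and oligo, and the sources used here give no versions or settings. RMA can compress differences of dim genes.

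Of 34760 probe sets, 21640 carry 1 symbol, 1321 several and 11799 none in the platform annotation. The brightest single-symbol probe set by mean over the 9 arrays stood for a gene, which left 19937. limma 3.58.1 (R 4.3.3, lmFit and eBayes) fitted 3 group means to the values as deposited, with two-sided tests and a threshold of 0.05 after Benjamini-Hochberg adjustment for all genes. Figures and tables used Python 3.11.15. The code was tested on simulated data.

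Values per array are given for members past the threshold in any comparison and for the 6 of each class with the widest range. Of the other cell cycle genes the 6 with the largest change per comparison and direction are named. Other genes are named for a single remark, after their values were seen. The members and lists were chosen with earlier results of these data known. Array and group were taken from the sample titles. Deviations from the group means correlated by -0.07 to 0.30 between arrays of the same title number, and by 0.30 and 0.21 in the 2 pairs of microglia arrays that share a number in their descriptions. With only 2 such pairs and no label that says what the number marks, neither numbering was taken as a pairing.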

Additional observations from a re-analysis of the deposited data

How the results depend on the processing

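In all 19 alternatives the calls of mitosis and replication genes kept the direction of their comparison. The other cell cycle genes did not between the microglia groups, where 4 higher and 10 lower became 7 and 7 with quantile normalization and 6 and 6 with cyclic loess. Mitosis calls between the microglia groups (2) were 1 with median centring, with only the 2 groups compared, with a precision weight per group and with an intensity trend and robust fit, and 1 to 3 without an array. Replication calls there (2) were 1 with the weights and 1 to 2 without an array, and calls of other cell cycle genes (14) were 6 with the 2 groups only, 6 with the weights and 5 to 20 without an array. Between Ly6C-high microglia and monocytes, mitosis calls (0) were 1 with cyclic loess and 0 to 9 without an array, replication calls (6) were 3 with the weights and 3 to 15 without an array, and other calls (26) were 14 to 52. Between Ly6C-low microglia and monocytes, mitosis calls (9) were 5 with quantile normalization, 16 with the 2 groups only, 17 with the weights and 1 to 15 without an array. Replication calls there (8) were 15 with the weights and 5 to 12 without an array, and other calls (26) were 60 with the 2 groups only, 65 with the weights and 11 to 46 without an array. The calls of all genes moved too. There they were 1356 higher and 1538 lower in the main fit, 2105 and 2509 with the 2 groups only, and 2457 and 2718 with the weights. Without monocyte replicate 1 they were 859 and 1005. Between the microglia groups they were 895 and 2185 in the main fit and 637 and 1508 with the weights. Apart from the arrays and groups left out by construction, the cause was not tested. With a replicate block on the title number, mitosis calls were 2, 0 and 9 and replication calls 2, 6 and 7 in the 3 comparisons, and these arrays share only a number. With a block on the number in the description, shared by 2 pairs of microglia arrays, they were 3, 0 and 9 and 2, 6 and 8, with a consensus correlation of 0.294. The lead of Ly6C-high replicate 2 over the next microglia array was 1.04 to 1.19 for mitosis and 0.75 to 0.83 for replication under 4 other scalings or probe set rules. Of single genes' values under the alternatives, 350 passed the threshold, 327 lost it and the rest kept their side of it. Of the rest, 44 were called in neither fit but moved by at least the SD within groups. The other 9389 include genes called in neither fit, so they are no measure of how stable the calls were. Member calls kept in all alternatives were 2 of 4, 2 of 6 and 6 of 17 in the 3 comparisons. Dim genes, such as Bub1 and Ttk, are limited by their signal over background.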
